A study of Rattus norvegicus with 40 samples.

Results

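The unfolded protein response was followed through 10 of its genes, Eif2ak3, Ern1, Atf6, Atf4, Xbp1, Ddit3, Hspa5, Calr, Pdia4 and Herpud1, out of 25958 gene identifiers in 4 tables of rat brain RNA sequencing. They were chosen by gene name in the hippocampus table and joined by identifier to the tables of the amygdala, the anterior cortex and the cerebellum, and all 10 were in all 4 tables. RNA was taken 12 months after exposure, from rats exposed to a blast and from rats given a sham exposure, with 5 blast and 5 sham libraries in each region and 40 in all. The labels give the tissue, the treatment and a number in each title, and no strain, sex, age or blast pressure. Libraries go by their titles, except an amygdala sham library whose column and title carry different numbers and which is called unnumbered. The labels tie no number to an animal, and the p-values below therefore measure only the spread between these samples, which may be technical.

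The unfolded protein response is the reaction of a cell to misfolded protein in the endoplasmic reticulum (ER). Membrane sensors of the ER detect the load and start separate arms, which slow protein synthesis, switch on transcription factors and raise the supply of chaperones and of the machinery that removes misfolded protein. The response is known from neurons under acute injury and from neurodegenerative disease, and it is also active at a basal level in cells that secrete much protein.

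Among the sensors, Eif2ak3 (ENSRNOG00000006069, chromosome 4:98648545-98709694, plus strand) encodes PERK, the kinase that phosphorylates eIF2α and so slows translation. Ern1 (ENSRNOG00000012864, chromosome 10:94588555-94681914, minus strand) encodes IRE1α, whose nuclease splices the Xbp1 messenger RNA. Atf6 (ENSRNOG00000024632, chromosome 13:89055983-89242443, minus strand) encodes a sensor that is cut in the Golgi and then acts as a transcription factor. Among the transcription factors, Atf4 (ENSRNOG00000017801, chromosome 7:121480723-121482772, plus strand) is translated more when eIF2α is phosphorylated and drives amino acid and stress genes. Xbp1 (ENSRNOG00000010298, chromosome 14:85753760-85758145, plus strand) encodes the factor made from the spliced message, and gene counts do not separate its spliced from its unspliced form. Ddit3 (ENSRNOG00000006789, chromosome 7:70580198-70585084, plus strand) encodes CHOP, a factor linked to cell death under lasting stress. Among the ER genes, Hspa5 (ENSRNOG00000018294, chromosome 3:13838304-13842762, plus strand) encodes BiP, the chief chaperone of the ER, and Calr (ENSRNOG00000003029, chromosome 19:25956771-25961666, minus strand) encodes calreticulin, a calcium-binding lectin chaperone. Pdia4 (ENSRNOG00000006228, chromosome 4:77470636-77489535, minus strand) encodes a disulfide isomerase, and Herpud1 (ENSRNOG00000018796, chromosome 19:11046909-11057254, minus strand) encodes a membrane protein of ER-associated degradation. Positions are those of the deposited tables, whose build the labels do not state.

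Letters through which the arms of the response are known to act were found in the promoters of Xbp1 and of 3 of the 4 ER genes, and Pdia4 had no match. RefSeq promoters of build GRCr8, a build that need not be that of the tables, were at hand for 8 of the 10 genes, Atf6 and Ern1 being the others, and the 250 bases before each start were searched on both strands. The ER stress response element (ERSE, CCAAT and CCACG with 9 bases of any kind between them), known to bind ATF6 and XBP1 with NF-Y, was found in Xbp1, Hspa5 and Calr, and in 22 of 33469 promoters of the same length (0.0657%). Its shorter form ERSE-II (ATTGG and CCACG with 1 base between them) was found in Herpud1 and in 0.0418% of promoters. ERSE-II shares the letters CCACG with the ERSE, for which Herpud1 had no match. The core of the C/EBP-ATF response element (CARE, TGATGCAA), known to bind ATF4, was found in Herpud1 and in 0.693% of promoters. The core of the unfolded protein response element (UPRE, TGACGTGG) was in none of the 8, against 0.52% of promoters. The 4 promoters with a match are shown 5′ to 3′ along the gene, to give the matched letters, in capitals, and where they lie. A match describes the letters and is not shown to be a bound site. In Hspa5 the ERSE spans bases 43 to 25 before the start, in Xbp1 bases 65 to 47 and in Calr, on the reverse strand, bases 232 to 214. In Herpud1 the ERSE-II spans bases 124 to 114 and the CARE core, on the reverse strand, bases 184 to 177.
Hspa5, chr3:38452766-38453015, plus strand: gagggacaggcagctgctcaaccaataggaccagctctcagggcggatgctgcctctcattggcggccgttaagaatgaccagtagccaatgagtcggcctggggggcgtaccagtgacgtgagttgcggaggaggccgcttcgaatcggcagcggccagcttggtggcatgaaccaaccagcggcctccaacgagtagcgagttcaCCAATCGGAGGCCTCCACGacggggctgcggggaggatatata
Calr, chr19:40213117-40213366, plus strand: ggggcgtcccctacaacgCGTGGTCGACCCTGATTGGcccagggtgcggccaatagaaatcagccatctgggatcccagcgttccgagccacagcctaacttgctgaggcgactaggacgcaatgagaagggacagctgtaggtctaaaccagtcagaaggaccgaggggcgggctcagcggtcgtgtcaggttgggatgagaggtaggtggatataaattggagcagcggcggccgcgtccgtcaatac
Xbp1, chr14:84604373-84604622, plus strand: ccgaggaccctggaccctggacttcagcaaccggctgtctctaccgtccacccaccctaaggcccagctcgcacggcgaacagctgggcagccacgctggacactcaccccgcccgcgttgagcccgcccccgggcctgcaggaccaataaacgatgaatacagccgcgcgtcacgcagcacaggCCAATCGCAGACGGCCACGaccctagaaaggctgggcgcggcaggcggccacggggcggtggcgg
Herpud1, chr19:10614708-10614957, minus strand: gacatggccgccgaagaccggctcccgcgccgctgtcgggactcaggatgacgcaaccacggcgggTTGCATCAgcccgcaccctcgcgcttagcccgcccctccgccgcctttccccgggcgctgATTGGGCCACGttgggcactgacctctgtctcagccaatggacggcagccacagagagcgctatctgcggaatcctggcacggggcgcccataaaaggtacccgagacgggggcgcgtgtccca

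Library totals ran from 11268097 to 37128383 counts, and the lowest count of any of the 10 genes in a library was 86. The mean log2 level of the marker list of each region was highest in that region among sham libraries. It was 5.16 for hippocampus markers in the hippocampus, 4.47 for amygdala markers in the amygdala, 5.69 for cortical markers in the anterior cortex and 8.45 for cerebellum markers in the cerebellum. The summed CPM did not follow this for 2 lists: amygdala markers had a median of 1043 CPM in sham cerebellum and 410.7 in sham amygdala, and cortical markers 1587 CPM in sham hippocampus and 1304 in sham anterior cortex. Some libraries stood apart. Choroid plexus markers, 15 genes of the secretory tissue that makes cerebrospinal fluid, summed to 11240 and 9387 CPM in hippocampus blast library Hip_8 and blast library Hip_666 and to 6604 CPM in sham library Hip_11, against 124 to 466 CPM in the other 7 hippocampus libraries. In the anterior cortex, blast library AC_8 had 16577 genes with a count and sham libraries AC_11, AC_13 and AC-15 had 17621, 17845 and 17510, against 18744 to 20748 in the other 6. Values with and without these 7 libraries are given where they touch a result. CPM below are counts per scaled library total (TMM within the region).

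No gene of the 10 was called different between blast and sham in any region at an adjusted p under 0.05 (edgeR quasi-likelihood F test, Benjamini-Hochberg over all genes tested). The same test called 0% of 15059 genes in the hippocampus, 0% of 15280 in the amygdala, 0% of 14918 in the anterior cortex and 0% of 14769 in the cerebellum. At an unadjusted p under 0.05, the members counted were 0 of 10 in the hippocampus against 1.89% of all genes, and 1 of 10 in the amygdala against 8.67%. They were 1 of 10 in the anterior cortex against 4.32% and 0 of 10 in the cerebellum against 4.62%. DESeq2 and limma-voom also called none of the 10 in any region. In each of the 40 pairs of gene and region, the blast and sham values overlapped, while they did not overlap for 0.272% of all genes in the hippocampus, 1.52% in the amygdala, 0.644% in the anterior cortex and 0.731% in the cerebellum. Point estimates of the log2 fold change of blast over sham lay between -0.50, for Atf6 in the anterior cortex, and 0.57, for Ddit3 in the same region.

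**Figure D1:**
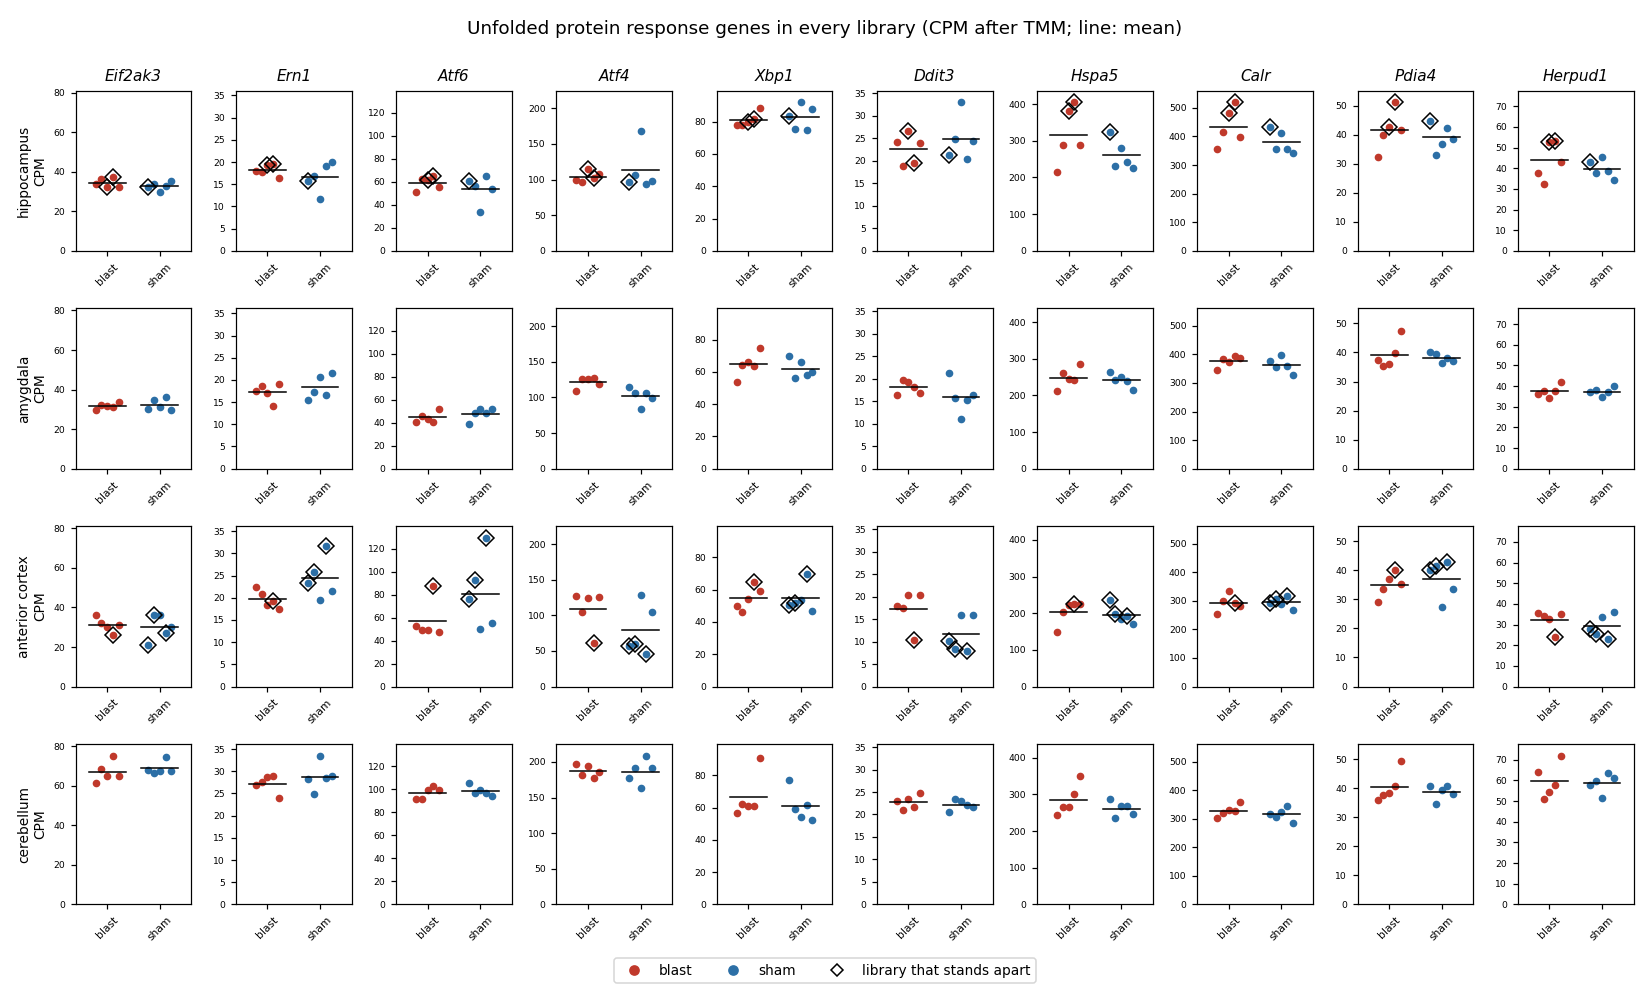
CPM (TMM-scaled, y axis from 0) of the 10 genes in each of the 40 libraries, blast left of sham, with 1 row of panels a region; lines are group means and diamonds mark the 7 libraries that stand apart. Blast and sham points overlap in every panel, and in the anterior cortex the 4 marked libraries are low for Atf4 (45 to 60.5 CPM) and high for Atf6 (76.0 to 129 CPM).

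**Figure D2:**
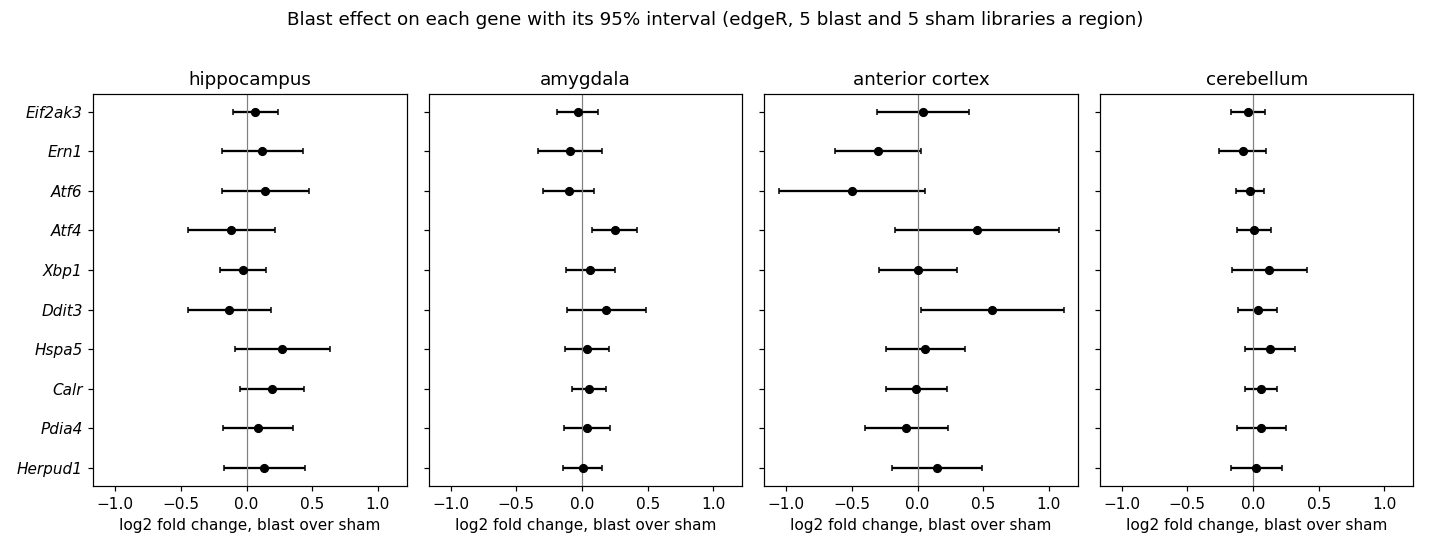
Log2 fold change of blast over sham (x axis) of each gene in each region, from 5 blast and 5 sham libraries; points are edgeR estimates and bars their 95% intervals before any adjustment. The intervals of Atf4 in the amygdala (0.08 to 0.42) and of Ddit3 in the anterior cortex (0.02 to 1.11) lie above 0 and the other 38 include 0.

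No sensor gene passed the test between blast and sham in any region. Eif2ak3, the PERK gene, averaged 34.3 ± 2.32 CPM in hippocampus blast libraries and 32.7 ± 2.07 in sham (SD, n = 5 each), and 31.7 ± 1.604 in amygdala blast and 32.4 ± 2.99 in sham libraries. It averaged 31.1 ± 3.58 CPM in anterior cortex blast and 30.2 ± 6.51 in sham, and 67.1 ± 5.06 in cerebellum blast and 68.8 ± 3.25 in sham libraries. Its 95% interval in the cerebellum, -0.16 to 0.09 on the log2 scale, was among the narrowest of the 10 genes. Ern1, the IRE1α gene, averaged 18.1 ± 1.28 CPM in hippocampus blast and 16.7 ± 3.25 in sham libraries, 17.2 ± 1.99 in amygdala blast and 18.4 ± 2.61 in sham, and 27.2 ± 2.01 in cerebellum blast and 28.8 ± 3.07 in sham. Atf6 averaged 59.2 ± 5.58 CPM in hippocampus blast and 53.7 ± 12.0 in sham libraries, 44.7 ± 4.61 in amygdala blast and 47.9 ± 5.28 in sham, and 96.9 ± 4.998 in cerebellum blast and 98.7 ± 4.34 in sham. None of these differences passed the test, and the Atf6 interval in the cerebellum, -0.13 to 0.08, was the narrowest of all 40.

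In anterior cortex libraries with few genes detected, Atf6 was high. It had 52.3, 49.1, 49.1, 87.1 and 47.5 CPM in blast libraries AC_22, AC_4, AC_666, AC_8 and AC_88, against 76.0, 92.6, 50.4, 129 and 55.4 CPM in sham libraries AC_11, AC_13, AC_14, AC-15 and AC_33. Its high values were those of blast library AC_8 and sham libraries AC_11, AC_13 and AC-15, the 4 libraries with few genes detected, and the remaining blast and sham libraries lay between 47.5 and 55.4 CPM. The log2 fold change was -0.50 ± 0.26 (SE, adjusted p = 0.799), and -0.10 ± 0.09 without those 4 libraries (4 blast and 2 sham, adjusted p = 0.999). Over all 16 alternatives the adjusted p of Atf6 in this region ran from 0.14 to 0.999. Ern1 had 22.5, 20.8, 18.4, 19.4 and 17.5 CPM in blast libraries in the same order and 23.3, 25.8, 19.4, 31.7 and 21.5 CPM in sham libraries. The highest values were those of sham libraries AC-15 and AC_13, and blast library AC_8 was not high. Ern1 had a log2 fold change of -0.30 ± 0.15, and -0.05 ± 0.14 without the 4 libraries. The adjusted p of Ern1 ran from 0.208 to 0.999 over 16 alternatives. Beyond leaving libraries out, the part of the number of genes detected in these values was not tested.

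Among the transcription factors, Atf4 in the amygdala gave the smallest p of the 40 pairs. It had 109, 126, 126, 127 and 119 CPM in blast libraries Amy_22, Amy_4, Amy_666, Amy_8 and Amy_88, against 115, 106, 83.3, 106 and 98.9 CPM in sham libraries Amy_11, the unnumbered library, Amy_14, Amy-15 and Amy_33. Of the 5 blast libraries 4 were above every sham library, and sham library Amy_14 was the lowest. The means were 121 ± 7.66 CPM in blast and 102 ± 11.9 CPM in sham libraries, a log2 fold change of 0.25 ± 0.080 with a 95% interval of 0.08 to 0.42. The unadjusted edgeR p was 0.00746 and the adjusted p 0.459. The adjusted p ran from 0.118 (DESeq2) to 1 over 15 alternatives, and the fold change from 0.19 to 0.30. The authors' deposited table gives a log2 fold change of 0.21 and an adjusted p of 0.0981 for the same comparison, and that table calls 17 of the 2096 amygdala genes for which it holds an adjusted p.

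Atf4 did not pass the test in the hippocampus or the cerebellum either. In the hippocampus it had 99.1, 96.02, 115, 102 and 107 CPM in blast libraries Hip_22, Hip_4, Hip_666, Hip_8 and Hip_88, against 96.9, 106, 168, 94.2 and 98.5 CPM in sham libraries Hip_11, Hip_13, Hip_14, Hip_15 and Hip_33. Sham library Hip_14 alone stood far above the other libraries of both groups, and 4 of the 5 blast libraries were above the sham median. The log2 fold change was -0.12 ± 0.15 with sham library Hip_14 and 0.07 without it. In sham library Hip_14 of the hippocampus Ddit3 was also the highest, at 33 CPM against 19.0 to 26.6 CPM in blast and 20.3 to 24.9 CPM in the other sham libraries, while Atf6 (33.6 CPM) and Ern1 (11.7 CPM) were the lowest of the 10. In the cerebellum Atf4 had 197, 182, 194, 178 and 186 CPM in blast libraries and, in the same order of numbers, 178, 191, 163, 208 and 191 CPM in sham libraries. The blast values lay within the range of the sham values there, and the log2 fold change was 0.01 ± 0.061, with an interval of -0.12 to 0.14.

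Atf4 and Ddit3 were low in the anterior cortex libraries in which Atf6 was high. Atf4 had 127, 105, 124, 60.5 and 126 CPM in blast libraries AC_22, AC_4, AC_666, AC_8 and AC_88, against 57.1, 60.3, 129, 45 and 105 CPM in sham libraries AC_11, AC_13, AC_14, AC-15 and AC_33. Ddit3, the CHOP gene, had 17.9, 17.4, 20.3, 10.2 and 20.4 CPM in blast libraries and 10.1, 8.44, 15.8, 7.82 and 15.9 CPM in sham libraries in the same order. For both genes the low values were those of the 4 libraries with few genes detected, 1 of them blast and 3 sham. The log2 fold change of Ddit3 was 0.57 ± 0.25 with a 95% interval of 0.02 to 1.11, an unadjusted edgeR p of 0.0419 and an adjusted p of 0.799. Without the 4 libraries it was 0.25 ± 0.13 (adjusted p = 0.999), from 4 blast libraries at 17.4 to 20.4 CPM and 2 sham libraries at 15.8 and 15.9 CPM. How many of all genes do not overlap in so few libraries was not counted. Over 16 alternatives the adjusted p of Ddit3 ran from 0.121 to 0.999. Atf4 had a log2 fold change of 0.45 ± 0.29, and 0.04 ± 0.11 without the 4 libraries. Of the 4 libraries 3 are sham, and the parts of the number of genes detected and of the exposure in these values cannot be told apart with them in.

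**Figure D3:**
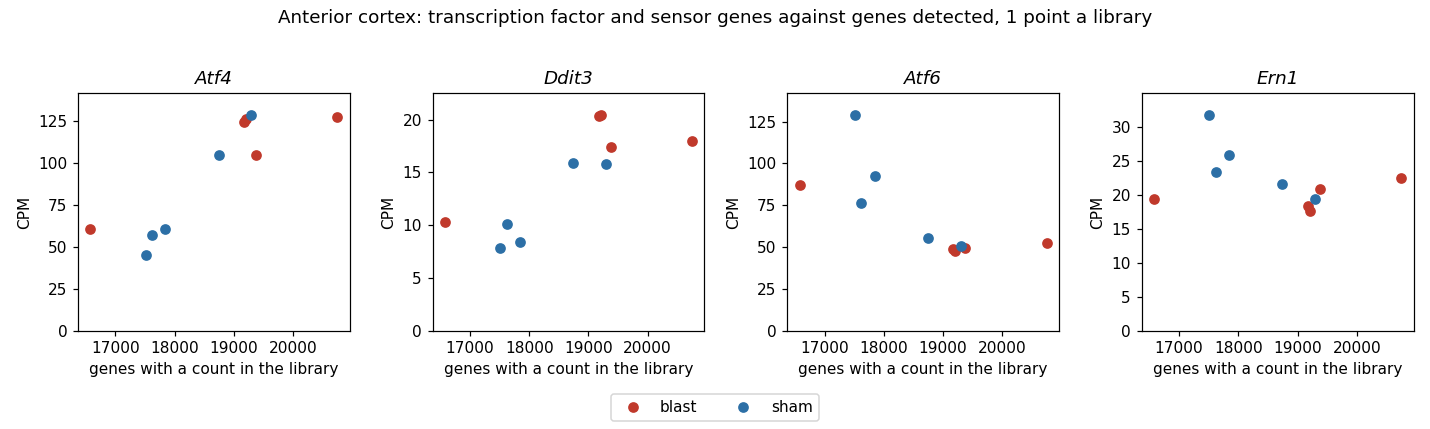
CPM (y axis, from 0) of Atf4, Ddit3, Atf6 and Ern1 in the 10 anterior cortex libraries against the number of genes with a count in the library (x axis), 1 point a library. The 4 libraries with 16577 to 17845 genes lie apart from the other 6, low for Atf4 and Ddit3 and high for Atf6, while for Ern1 blast library AC_8 lies among the other 6.

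Neither Ddit3 in the other regions nor Xbp1 in any region passed the test. Ddit3 averaged 22.7 ± 3.26 CPM in hippocampus blast and 24.8 ± 4.98 in sham libraries, and 22.8 ± 1.51 in cerebellum blast and 22.2 ± 1.14 in sham libraries. In the amygdala it averaged 18.1 ± 1.48 CPM in blast and 15.9 ± 3.67 in sham libraries, with sham library Amy_11, at 21.3 CPM, above every blast library. Xbp1 averaged 81.0 ± 4.30 CPM in hippocampus blast and 82.7 ± 7.58 in sham libraries, and 64.6 ± 7.56 in amygdala blast and 61.9 ± 5.76 in sham. Anterior cortex Xbp1 averaged 54.8 ± 7.26 CPM in blast and 54.6 ± 8.78 in sham libraries, a log2 fold change of 0.00 ± 0.14. In cerebellum libraries it had 56.8, 61.9, 61.2, 60.9 and 90.6 CPM in blast libraries Cer22, Cer4, Cer666, Cer8 and Cer88, against 77.0, 59.1, 53.9, 61.8 and 52.1 CPM in sham libraries Cer11, Cer13, Cer14, Cer15 and Cer33. Blast library Cer88 was far above the other blast libraries, and the log2 fold change was 0.12 ± 0.13 with it and -0.02 without it.

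Hspa5 and Calr were highest in the hippocampus libraries with high choroid plexus markers. Hspa5, the BiP gene, had 215, 288, 381, 405 and 287 CPM in hippocampus blast libraries Hip_22, Hip_4, Hip_666, Hip_8 and Hip_88, against 324, 231, 282, 242 and 226 CPM in sham libraries Hip_11, Hip_13, Hip_14, Hip_15 and Hip_33. Calr had 355, 414, 482, 519 and 399 CPM in those blast libraries and 433, 355, 413, 355 and 341 CPM in the sham libraries. For both genes the top values of the 10 libraries were those of blast library Hip_8, blast library Hip_666 and sham library Hip_11, in the same order as their choroid plexus marker sums. The log2 fold change of Hspa5 was 0.27 ± 0.17 (means 315 ± 77.3 CPM in blast and 261 ± 41.6 CPM in sham), with a 95% interval of -0.09 to 0.63 and an adjusted p of 0.998. With the 3 libraries left out it was 0.11 ± 0.13, from 263 ± 41.7 CPM in 3 blast and 243 ± 23.7 CPM in 4 sham libraries (adjusted p = 1). Calr had a log2 fold change of 0.19 ± 0.11, and 0.10 ± 0.11 without the 3 libraries. Over 16 alternatives the adjusted p of Hspa5 ran from 0.914 to 1, and that of Calr over the same range.

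Pdia4 and Herpud1 had 2 or 3 of the same libraries at the top. Pdia4 had 32.1, 39.8, 42.5, 51.1 and 41.6 CPM in hippocampus blast libraries Hip_22, Hip_4, Hip_666, Hip_8 and Hip_88, against 44.8, 32.9, 36.7, 42.2 and 38.4 CPM in sham libraries Hip_11, Hip_13, Hip_14, Hip_15 and Hip_33. Its 3 highest values were again those of blast library Hip_8, sham library Hip_11 and blast library Hip_666. Herpud1 had 37.6, 32.4, 52.7, 53.1 and 43.1 CPM in the blast libraries and 43.0, 37.9, 45.4, 38.8 and 34.3 CPM in the sham libraries, with blast library Hip_8 and blast library Hip_666 highest and sham library Hip_14 next. Pdia4 had a log2 fold change of 0.09 ± 0.12, and 0.02 ± 0.13 without the 3 libraries. That of Herpud1 was 0.13 ± 0.14, and turned to -0.05 ± 0.14 without them. The part of choroid plexus RNA in these values was not tested beyond leaving the libraries out. In these bulk samples more cells of a type and more RNA per cell cannot be told apart.

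**Figure D4:**
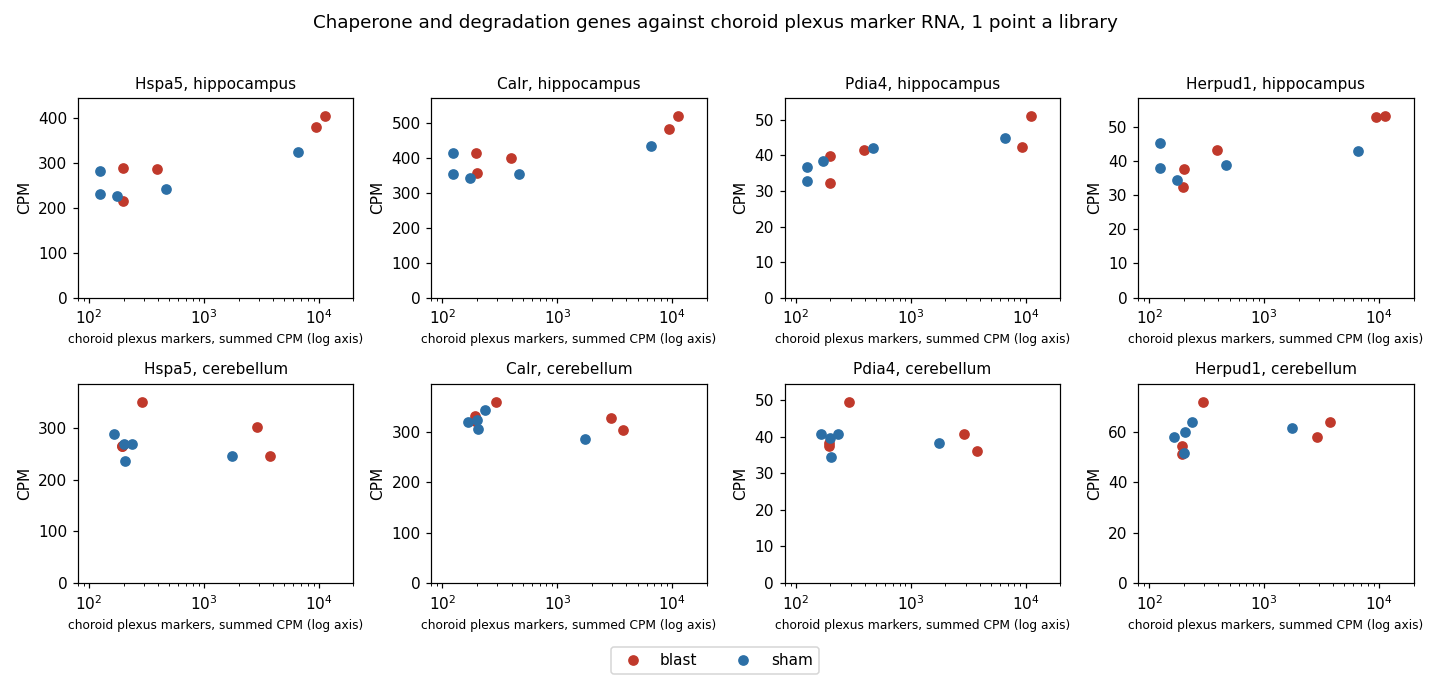
CPM (y axis, from 0) of Hspa5, Calr, Pdia4 and Herpud1 against the summed CPM of the choroid plexus markers (x axis, log scale) in the 10 hippocampus libraries (top) and the 10 cerebellum libraries (bottom), 1 point a library. In the hippocampus the libraries with marker sums of 6604 to 11240 CPM hold the top Hspa5 and Calr values, and in the cerebellum those with sums of 1755 to 3741 CPM have 245, 301 and 246 CPM of Hspa5 in a range of 236 to 350.2 CPM.

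The cerebellum also had libraries with raised choroid plexus markers, of which 1 was among the top libraries for Hspa5. Choroid plexus markers, 14 of the 15 being in that table, summed to 3741 and 2910 CPM in cerebellum blast library Cer22 and blast library Cer8 and to 1755 CPM in sham library Cer33, against 166 to 291 CPM in the other 7 libraries. Hspa5 had 245, 266, 265, 301 and 350.2 CPM in blast libraries Cer22, Cer4, Cer666, Cer8 and Cer88, against 288, 236, 268, 269 and 246 CPM in sham libraries Cer11, Cer13, Cer14, Cer15 and Cer33. Library Cer88, which is not among them, was the highest and Cer8 the next, while Cer22 and Cer33 were among the lowest. Cer88 was also the highest cerebellum library for Xbp1 (90.6 CPM), Calr (359 CPM), Pdia4 (49.5 CPM), Herpud1 (71.8 CPM) and Ddit3 (24.8 CPM). The log2 fold change of Hspa5 in the cerebellum was 0.13 ± 0.088 with an interval of -0.06 to 0.32, and its lowest value over 15 alternatives was 0.04. Calr averaged 328 ± 20.2 CPM in blast and 315 ± 21.3 CPM in sham libraries, Pdia4 40.4 ± 5.39 in blast and 38.7 ± 2.58 in sham, and Herpud1 59.9 ± 8.25 in blast and 58.9 ± 4.66 in sham.

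No ER gene passed the test in the amygdala or the anterior cortex. Hspa5 averaged 248 ± 26.9 CPM in amygdala blast and 242 ± 17.5 CPM in sham libraries, with an interval of -0.13 to 0.21 on the log2 scale, and 204 ± 32.2 CPM in anterior cortex blast and 196 ± 25.1 CPM in sham libraries. Calr averaged 376 ± 19.8 CPM in amygdala blast and 363 ± 25.6 CPM in sham libraries, and 292 ± 29.3 CPM in anterior cortex blast and 295 ± 19.4 CPM in sham libraries. Pdia4 averaged 39.2 ± 4.96 CPM in amygdala blast and 38.3 ± 1.58 in sham, and 34.97 ± 4.02 in anterior cortex blast and 37.1 ± 6.50 in sham. Herpud1 averaged 37.5 ± 2.89 CPM in amygdala blast and 37.4 ± 1.98 in sham libraries, a log2 fold change of 0.00 ± 0.070. Herpud1 in the anterior cortex had 35.7, 34.3, 32.6, 23.9 and 35.2 CPM in blast libraries AC_22, AC_4, AC_666, AC_8 and AC_88, against 28.0, 25.3, 33.5, 22.9 and 36.2 CPM in sham libraries AC_11, AC_13, AC_14, AC-15 and AC_33. As with Atf4, its low values were those of the 4 libraries with few genes detected, and its fold change of 0.15 ± 0.16 on the log2 scale became -0.02 ± 0.094 without them.

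Tested over all regions in 1 edgeR model, the blast effect of none of the 10 genes passed the adjusted threshold, where 0.0122% of 16378 genes did (Hif3a and Sla2, named after their values were seen). The mean log2 fold change over the 4 regions ran from -0.13 ± 0.085 for Atf6 to 0.16 ± 0.088 for Ddit3, with 0.12 ± 0.064 for Hspa5 (adjusted p = 0.564) and 0.14 ± 0.096 for Atf4 (adjusted p = 0.629). At an unadjusted p under 0.05 the model counted 0 of the 10, against 9.48% of all genes, and limma-voom called none. An effect of blast that differs by region was called for 0 of the 10 and for 0% of all genes. For Ddit3 alone the unadjusted p of that edgeR test was under 0.05 (adjusted p = 1), against 4.76% of all genes. The limma-voom fit also called none. The regions rest on separate libraries, in which title numbers recur.

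Other genes of the response, 112 found of 115 named in 5 lists, gave no call in any region, where 0% of all genes were called. Higher in blast were 56 of 107 tested in the hippocampus, 56 of 107 in the amygdala, 54 of 106 in the anterior cortex and 67 of 108 in the cerebellum, beside 49, 49.7, 50 and 51.1% of all genes in those regions. Their median log2 fold changes were 0.01, 0.01, 0.00 and 0.02, beside medians of 0.00 over all genes in each region. Without the libraries that stand apart 45 of 108 were higher in the hippocampus (median -0.03) and 50 of 108 in the anterior cortex (median -0.01), beside 49.6% and 51.5% of all genes. At an unadjusted p under 0.05 edgeR counted 0 of them in the hippocampus, 12 in the amygdala, 2 in the anterior cortex and 3 in the cerebellum, beside 1.89, 8.67, 4.32 and 4.62% of all genes. Genes of the PERK arm and of ATF4 targets were higher in 11 of 26, 12 of 25, 7 of 24 and 12 of 26 in those regions. Without the libraries that stand apart 12 of 26 of them were higher in the hippocampus and 8 of 26 in the anterior cortex. Their median log2 fold change in the anterior cortex was -0.03 with all libraries and -0.10 without those that stand apart. Of the ER chaperones of the ATF6 arm 15 of 22 were higher in the hippocampus, 10 of 22 in the amygdala, 11 of 22 in the anterior cortex and 15 of 22 in the cerebellum. Without the 3 hippocampus libraries high in choroid plexus markers 10 of those 22 chaperones were higher there, and without the 4 anterior cortex libraries with few genes detected 15 of 22. Of the XBP1 targets in secretion 11 of 23, 16 of 23, 15 of 23 and 17 of 23 were higher, and of the genes of ER-associated degradation 9 of 21, 9 of 21, 11 of 21 and 14 of 21. Without those libraries 6 of 23 XBP1 targets were higher in the hippocampus and 10 of 23 in the anterior cortex, and of the genes of ER-associated degradation 8 of 21 and 7 of 21. Regulators and genes of apoptosis were higher in 10 of 15, 9 of 16, 10 of 16 and 9 of 16. Without the libraries that stand apart 9 of 16 were higher in the hippocampus and 10 of 16 in the anterior cortex.

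Within these lists the gene with the smallest p among those lower in blast was Ppp1r15b, which encodes a phosphatase subunit that reverses eIF2α phosphorylation, in the anterior cortex and the cerebellum. In the cerebellum it had 64.3, 59.3, 62.1, 62.7 and 61.6 CPM in blast libraries Cer22, Cer4, Cer666, Cer8 and Cer88, against 71.9, 72.7, 78.0, 61.5 and 71.5 CPM in sham libraries Cer11, Cer13, Cer14, Cer15 and Cer33. Sham library Cer15 lay among the blast libraries and the other 4 sham libraries above them (log2 fold change -0.20 ± 0.061, adjusted p = 0.96). In the amygdala it averaged 52.8 ± 7.64 CPM in blast and 64.5 ± 4.96 CPM in sham libraries (log2 fold change -0.29 ± 0.093, adjusted p = 0.459). Anterior cortex Ppp1r15b was at -0.58 ± 0.26 on the log2 scale, and at -0.13 ± 0.10 without the 4 libraries with few genes detected. In the hippocampus Ppp1r15b had 62.7, 77.3, 64.4, 69.6 and 60.95 CPM in blast libraries Hip_22, Hip_4, Hip_666, Hip_8 and Hip_88. Sham libraries Hip_11, Hip_13, Hip_14, Hip_15 and Hip_33 had 78.55, 66.0, 60.2, 76.0 and 65.8 CPM, and the groups overlapped. Its mean over the 4 regions was -0.29 ± 0.081 (adjusted p = 0.215), the smallest p of the 110 tested. That mean includes the 4 anterior cortex libraries with few genes detected.

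The other genes named by smallest p were spread over the lists. In the amygdala, blast and sham did not overlap for 4 of the 107, where 1.52% of all genes did not. Sec61g, a subunit of the ER translocon, averaged 18.3 ± 2.29 CPM in blast and 13.2 ± 1.87 CPM in sham libraries, and Selenom, an ER selenoprotein, 71.4 ± 6.54 CPM in blast and 59.5 ± 4.58 CPM in sham. Ube2j1, an enzyme of ER-associated degradation, averaged 41.7 ± 1.88 CPM in blast and 48.2 ± 2.86 CPM in sham. Each of these 3 genes, which are among the 4, had an adjusted edgeR p of 0.459, as did Ppp1r15b, and Ssr4, next among those higher, had an adjusted p of 0.528. In the hippocampus Sec23b, Nfe2l2 and Edem1 had the smallest p among those higher and Ddit4, Cebpb and Stc2 among those lower, with log2 fold changes from -0.55 to 0.30 and adjusted p of 0.998. For the anterior cortex these were Kdelr2, Spcs3 and Derl2, and with Ppp1r15b, Sec62 and Sesn2, at an adjusted p of 0.799. In the cerebellum these were Kdelr3, Pdia6 and Pdia3, and with Ppp1r15b, Atf3 and Map3k5. Pdia3, a disulfide isomerase of the calreticulin cycle, averaged 209 ± 8.26 CPM in blast and 198 ± 3.75 CPM in sham libraries there, and was the only one of the 108 whose groups did not overlap, beside 0.731% of all genes.

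Sham levels of most of the 10 genes differed between regions. In 1 edgeR model of the 20 sham libraries, 9 of the 10 differed between regions at an adjusted p under 0.05, beside 74.5% of 15695 genes, and Pdia4 did not (adjusted p = 0.533). CPM here are scaled over the 20 sham libraries. The counts of each region were deposited separately. In all comparisons of regions, the region and the processing of its counts therefore cannot be told apart. Eif2ak3 averaged 32.95 ± 2.20 CPM in the hippocampus, 32.4 ± 2.90 in the amygdala, 31.9 ± 7.05 in the anterior cortex and 62.9 ± 2.75 in the cerebellum (SD, n = 5 each). The cerebellum was the highest region and the other regions did not differ beyond their spread. The log2 difference of the hippocampus minus the cerebellum was -0.93 ± 0.12 (adjusted p = 9.75e-07), beside 53.3% of all genes called in that pair.

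The mean levels of Atf6, Ern1, Herpud1 and Atf4 were also highest in the cerebellum, but Atf6 and Ern1 were not called different there from the anterior cortex (adjusted p = 0.716 and 0.847). Of all genes, 58.5% were called between amygdala and cerebellum and 60.2% between anterior cortex and cerebellum. Atf6 averaged 54.1 ± 12.1 CPM in the hippocampus, 47.9 ± 5.29 in the amygdala, 84.98 ± 33.01 in the anterior cortex and 90.2 ± 4.50 in the cerebellum. Without the libraries that stand apart, the 2 anterior cortex sham libraries left averaged 57.3 ± 4.28 CPM. The differences of Atf6 in the anterior cortex from the hippocampus and the amygdala, called with all libraries, were then not called (adjusted p = 0.747 and 0.495). Atf6 was then called lower in the anterior cortex than in the cerebellum (-0.67 ± 0.18 on the log2 scale, adjusted p = 0.00453). Ern1 averaged 16.8 ± 3.32 CPM in the hippocampus, 18.4 ± 2.64 in the amygdala, 25.7 ± 4.85 in the anterior cortex and 26.3 ± 2.97 in the cerebellum, and its calls of the anterior cortex against the hippocampus and the amygdala were lost likewise (adjusted p = 0.194 and 0.496). The call of Ern1 between amygdala and anterior cortex was also lost without number 11, 13, 15 or the unnumbered library, and that of Atf6 between hippocampus and anterior cortex without number 13. Herpud1 averaged 40.1 ± 4.25 CPM in the hippocampus, 37.3 ± 2.04 in the amygdala, 30.9 ± 6.26 in the anterior cortex and 53.8 ± 3.89 in the cerebellum, and only its call of the hippocampus against the anterior cortex was lost without the libraries that stand apart, as it was without number 11, 13 or 15. Atf4 averaged 113 ± 31.2 CPM in the hippocampus, 102 ± 11.9 in the amygdala, 84.0 ± 38.9 in the anterior cortex and 170.2 ± 14.2 in the cerebellum. Its hippocampus and cerebellum differed by -0.58 ± 0.22 on the log2 scale (adjusted p = 0.0322), a call that was lost when the sham libraries of number 11, 13, 15 or 33 were left out. Its anterior cortex and cerebellum differed by -1.02 ± 0.23 with all libraries, and by -0.44 ± 0.19 (adjusted p = 0.0539) without those that stand apart. In the authors' FPKM (fragments per kilobase, scaled to library depth), Atf4 was at 105 ± 28.6 in sham hippocampus and 132 ± 12.9 in sham cerebellum. These 2 regions were nearer to each other by FPKM than by CPM. Whether Atf4 was counted alike in each region was not tested.

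The mean levels of Ddit3, Xbp1, Hspa5 and Calr were highest in the hippocampus, where 20.7% of all genes were called against the amygdala and 43.6% against the anterior cortex, and 21.8% between those 2 regions. Ddit3 averaged 25.0 ± 4.96 CPM in the hippocampus, 15.9 ± 3.69 in the amygdala, 12.3 ± 4.36 in the anterior cortex and 20.3 ± 1.02 in the cerebellum, and its hippocampus and cerebellum were not called different (adjusted p = 0.207). Without the libraries that stand apart Ddit3 was called higher in the hippocampus than in the cerebellum (0.37 ± 0.15 on the log2 scale, adjusted p = 0.0466) and lower in the amygdala than in the cerebellum (-0.35 ± 0.15, adjusted p = 0.0449). Its call of the hippocampus against the amygdala was lost without number 14 or 33, and that of the anterior cortex against the cerebellum without the libraries that stand apart. Xbp1 averaged 83.2 ± 7.55 CPM in the hippocampus, 61.9 ± 5.81 in the amygdala, 57.6 ± 9.04 in the anterior cortex and 55.6 ± 9.19 in the cerebellum, where the last 3 did not differ beyond their spread, and its call against the amygdala was lost without number 33. Calr averaged 382 ± 40.1 CPM in the hippocampus, 363 ± 25.3 in the amygdala, 311 ± 18.0 in the anterior cortex and 288 ± 19.7 in the cerebellum. No neighbours in this order were called different. By the authors' FPKM the anterior cortex (154 ± 11.2) was instead below the cerebellum (168 ± 11). For Xbp1 too, FPKM put the anterior cortex (47.8 ± 7.75) below the cerebellum (54.2 ± 8.71). For Hspa5 it put the amygdala (93.4 ± 9.565, n = 4) below the cerebellum (101.6 ± 7.66). The call of Calr in the hippocampus against the anterior cortex was lost without number 11 (adjusted p = 0.0641). Hspa5 averaged 263 ± 41.1 CPM in the hippocampus, 241 ± 17.3 in the amygdala, 207 ± 23.9 in the anterior cortex and 239 ± 20.1 in the cerebellum. Of its 6 pairs only the hippocampus against the anterior cortex was called (0.34 ± 0.10 on the log2 scale, adjusted p = 0.011), a call lost without number 14 (adjusted p = 0.0563), and without the libraries that stand apart the anterior cortex was also called below the cerebellum (adjusted p = 0.0159). The region difference of Hspa5 (adjusted p = 0.037) was lost without number 13, 14, 15 or 33, at adjusted p of 0.0621, 0.168, 0.0931 and 0.0666.

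**Figure D5:**
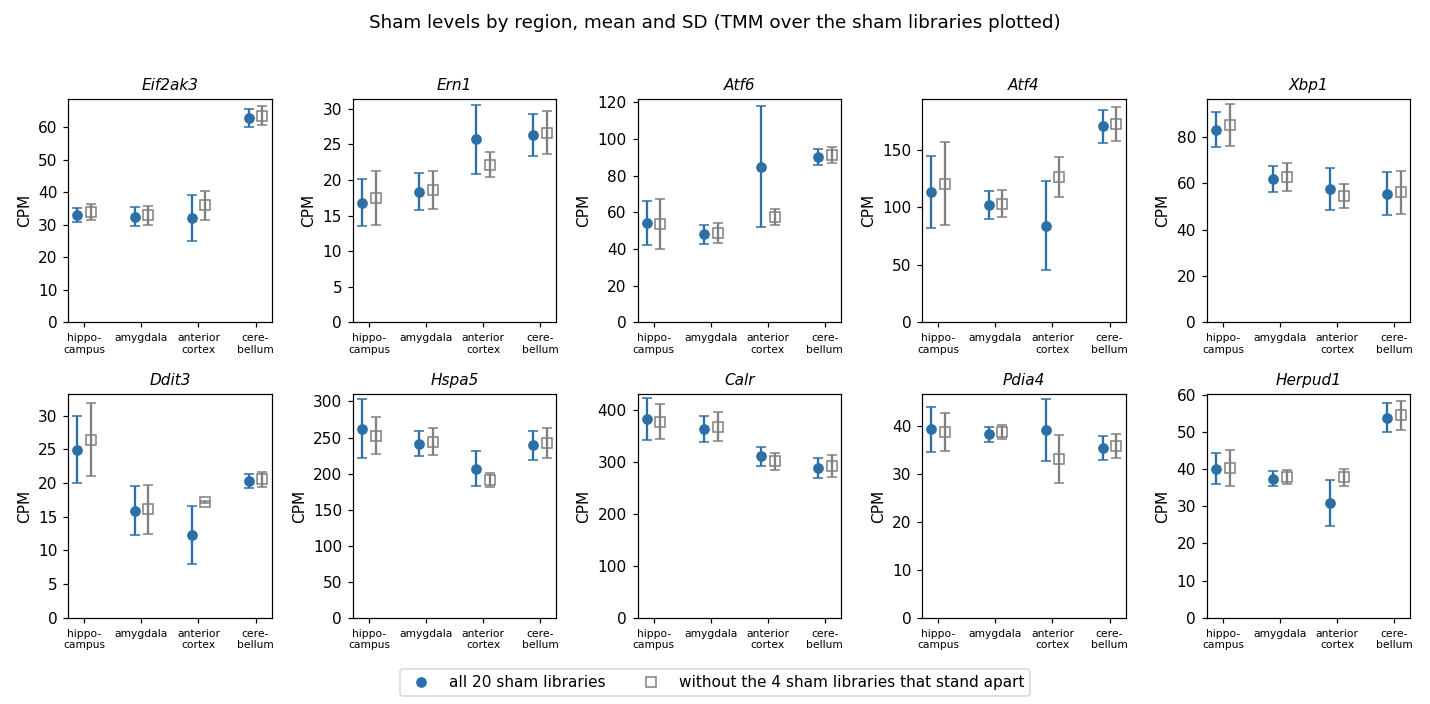
Mean CPM (y axis, from 0; bars are SD) of each gene in the sham libraries of each region, from all 20 sham libraries (filled) and without the 4 that stand apart (open). Eif2ak3 is highest in the cerebellum (62.9 CPM), Xbp1 in the hippocampus (83.2 CPM), and the filled and open anterior cortex means of Atf6 and Atf4 lie apart.

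Per length, Calr had the highest and Ern1 the lowest mean of the 10 in sham libraries of every region, although in anterior cortex sham libraries AC_11 and AC-15 Eif2ak3 (4.35 and 5.84 FPKM) was below Ern1 (4.42 and 6.197 FPKM). In the authors' FPKM (fragments per kilobase, scaled to library depth), Calr in sham hippocampus stood at 204 ± 24.0 FPKM, followed by Atf4 at 105 ± 28.6, Hspa5 at 102 ± 17.4 and Xbp1 at 74.1 ± 5.92 (SD, n = 5 each). Ddit3 followed at 28.5 ± 5.49 FPKM, Herpud1 at 21.7 ± 2.54, Pdia4 at 16.8 ± 2.18 and Atf6 at 11.5 ± 2.68, with Eif2ak3 at 7.30 ± 0.437 and Ern1 at 3.39 ± 0.648 the lowest. Atf4 and Hspa5 lay within each other's spread. In sham cerebellum Calr stood at 168 FPKM, Atf4 at 132 ± 12.9, Hspa5 at 102 ± 7.66 and Ern1 at 5.82 ± 0.590 FPKM. In sham anterior cortex Hspa5, at 74.7 ± 7.69 FPKM, and Atf4, at 73.2 ± 36.3 FPKM, lay within each other's spread.

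After the mean of each region and treatment was taken off, some of the 10 genes varied together over the 40 libraries. Atf4 and Ddit3 had a Pearson r of 0.894 (Spearman rho 0.802), and 0.735 over the 33 libraries that do not stand apart. Over all libraries Atf6 ran against both, at -0.889 with Atf4 and -0.848 with Ddit3, and at -0.762 and -0.67 over the 33 libraries. Spearman rho over the 33 libraries was weaker, at 0.598 for Atf4 with Ddit3. For Atf6 it was -0.552 with Atf4 and -0.45 with Ddit3. Sham library Hip_14, far from the other hippocampus sham libraries for Atf4, is among the 33. So are cerebellum libraries Cer22, Cer8 and Cer33, in which choroid plexus markers were raised. Within the regions the r of Atf4 with Ddit3 was 0.853 in hippocampus, 0.908 in amygdala, 0.964 in anterior cortex and 0.1 in cerebellum libraries (10 libraries each). That of Atf6 with Atf4 was -0.894, -0.47, -0.943 and -0.448 in those regions, and that of Atf6 with Ddit3 -0.858, -0.555, -0.949 and 0.0833. Hspa5 and Calr had an r of 0.83 and Hspa5 and Pdia4 of 0.727, and these were 0.817 and 0.708 over the 33 libraries. Hspa5 and Atf4 had an r of -0.116 over all libraries and of 0.216 over the 33 libraries. Within the regions it was 0.23 in hippocampus, 0.294 in amygdala, -0.413 in anterior cortex and -0.31 in cerebellum libraries. The points share scaling and, between regions, title numbers, so these values describe the libraries.

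Over the whole table, the genes whose pattern was most like that of Hspa5 were Calr (r = 0.83), Pdia3 (0.83), Hsp90b1 (0.76), Mtus1 (0.74) and Pdia4 (0.73), over 40 libraries. Calr, Pdia3, Hsp90b1 and Pdia4 encode ER chaperones or disulfide isomerases, and all but Mtus1 were in the lists. Within the regions the r of Hspa5 with Calr was 0.98 in hippocampus, 0.755 in amygdala, 0.597 in anterior cortex and 0.784 in cerebellum libraries (10 libraries each). With Pdia4 it was 0.796, 0.514, 0.62 and 0.965 in those regions, and with Mtus1 0.929, -0.187, 0.631 and 0.732. The genes most like Atf4 were Ppia (r = 0.98), Hsbp1 (0.97), Cox6b1 (0.97), Nedd8 (0.96) and Myl12b (0.96), none of them in the lists of the response. In the anterior cortex, where the libraries with few genes detected lie, the r of Atf4 with Ppia was 0.997, and it was 0.962 in hippocampus, 0.821 in amygdala and 0.828 in cerebellum libraries. Ppia encodes cyclophilin A and Cox6b1 a subunit of cytochrome c oxidase, both widely expressed.

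In sham libraries, the other genes of the response differed between regions for 70 of 109 (64.2%), beside 74.5% of all genes. The smallest p were those of Wfs1, Cebpb, Map3k5, Psat1 and Slc7a11. Wfs1, which encodes wolframin of the ER membrane, averaged 432 ± 76.2 CPM in the hippocampus and 21.9 ± 2.27 CPM in the cerebellum. Cebpb, a factor that pairs with ATF4, averaged 56.5 ± 11.4 CPM in the hippocampus and 8.86 ± 1.27 CPM in the cerebellum. Map3k5, the kinase ASK1 of stress signalling, was instead highest in the cerebellum, at 30.0 ± 3.88 CPM in the hippocampus and 119 ± 20.2 CPM in the cerebellum. Psat1 and Slc7a11, known targets of ATF4 in serine synthesis and cystine import, were lowest in the cerebellum, at 147 ± 27.8 and 78.9 ± 8.98 CPM in the hippocampus and 49.0 ± 3.13 and 20.5 ± 4.82 CPM in the cerebellum.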

How the data were processed

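Each region's table held, per the file headers, raw counts of reads by gene, FPKM and a normalized signal, all from the authors. The authors deposited a log2 fold change of blast over sham too, with p-values and adjusted p-values. The submitters' processing notes name CASAVA, and for the aligner, the counter and the build the sources used here name none. The counts were used for every test here, FPKM only for levels between genes (2 columns of the unnumbered amygdala library, FPKM and signal, were not used), and the authors' fold changes only where named. Each region was tested with edgeR 4.0.16 (filterByExpr, TMM, two-sided quasi-likelihood F test, Benjamini-Hochberg over all genes, called under 0.05). The SE is the log2 fold change over the square root of F, and intervals are 95%. Region models held all 40 libraries (8 group means) or the 20 sham libraries. Alternatives were DESeq2 1.42.0, limma 3.58.1 voom, RLE size factors, no filter, and libraries left out. Scripts were tested on simulated data. Correlations used log2 CPM with a prior count of 2. Library totals limit counting error only.

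The 10 genes, the lists and the libraries set apart were chosen with earlier results of these data known. Of the 115 further names, 112 were matched, as were 135 of 140 markers in 14 lists. The genes named from the lists are, in each region, the 3 with the smallest p higher and the 3 lower in blast, the 5 with the smallest p between sham regions, and the 5 most like Hspa5 and Atf4. Ube2j1, Sec61g and Selenom fall under that rule, and another gene it names is not reported here. Among 80 pairs of libraries of 1 group no duplicates were found (smallest chi-square per degree of freedom 6.64).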

Additional observations from a re-analysis of the deposited data

Results flagged for a closer look

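In 5 of the 80 groups of 5 libraries checked (10 genes, 8 groups), 1 library lay far from the others by Dixon's test, and chance alone marks about 1 group in 20. In anterior cortex blast library AC_8, Atf6 was at 87.1 CPM, with 52.3 CPM the next blast library, and Herpud1 was at 23.9 CPM, with 32.6 CPM the next. In cerebellum blast library Cer88, Xbp1 was at 90.6 CPM, with 61.9 CPM the next. In hippocampus sham library Hip_14, Atf4 was at 168 CPM, with 106 CPM the next. In cerebellum sham library Cer15, Eif2ak3 was at 74.5 CPM, with 68.1 CPM the next. Anterior cortex blast library AC_8 is the blast library with the fewest genes detected (16577), and its part in these values was not tested beyond leaving the library out.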

How the results depend on the processing

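No alternative called any of the 10 genes between blast and sham, and the smallest adjusted p among 780 recomputed fold changes was 0.118. Of these, 734 kept their sign and 46 turned, the largest value that turned being 0.148 on the log2 scale, and the cause was not tested. Without the libraries that stand apart, turned values were Herpud1 in the hippocampus (-0.046), in the anterior cortex Eif2ak3 (-0.044), Calr (0.063), Pdia4 (0.136) and Herpud1 (-0.021), and in the mean over regions Eif2ak3 (-0.022) and Herpud1 (-0.017). Xbp1 in the anterior cortex was -0.0032 by DESeq2, -0.0028 with RLE size factors and -0.0017 in 1 model of all 40 libraries, in which Atf4 in the cerebellum was -0.0017. Leaving out 1 library gave ranges across 0 in the hippocampus for Atf4 (-0.172 to 0.074) and Xbp1 (-0.062 to 0.014), and in the amygdala for Hspa5 (-0.014 to 0.092), Pdia4 (-0.041 to 0.076), Herpud1 (-0.041 to 0.036) and Eif2ak3 (-0.061 to 0.0085). It did so in the anterior cortex for Xbp1 (-0.061 to 0.108), Eif2ak3 (-0.059 to 0.126) and Calr (-0.065 to 0.035), and in the cerebellum for Atf4 (-0.039 to 0.051), Herpud1 (-0.052 to 0.076), Xbp1 (-0.017 to 0.223) and Pdia4 (-0.023 to 0.101). Leaving out a number gave such ranges in the mean over regions for Eif2ak3 (-0.028 to 0.020), Pdia4 (-0.019 to 0.073) and Xbp1 (-0.027 to 0.079).

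Over all genes, the count called in the hippocampus was 0, 1 by DESeq2 and 0 to 1 with 1 library left out. In the amygdala it was 0, 9 by DESeq2, 2 without the filter and 0 to 2 with 1 library left out. In the anterior cortex it was 0, 34 in 1 model of all 40 libraries and 2 without the libraries that stand apart. In the cerebellum it was 0, 5 by DESeq2 and 0 to 1 with 1 library left out. For the mean over regions it was 2, 0 without the 7 libraries that stand apart, and 2 to 38 with 1 number left out, 38 being without number 14. At an unadjusted p under 0.05 DESeq2 counted 431 genes in the hippocampus, 1492 in the amygdala, 1007 in the anterior cortex and 755 in the cerebellum, and edgeR 284, 1325, 644 and 683.

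Blast and sham libraries share no title number within a region, so no paired fit of a region was possible. Over regions, same-numbered libraries had deviations correlated above 0.1 in 19 of 57 pairs (-0.151 to 0.439). These correlations cannot decide whether a number marks an animal. The main tests over regions took same-numbered libraries as independent, which may not hold. Still, 29 of the 57 correlated best with their own number, a hint from the data and not from the design. Of the 27 sham pairs 11 did so, and 8 were above 0.1. How many pairs would do so by chance was not counted. With the number as a replicate block in limma-voom, the mean blast effect was called for 1 gene, the interaction for 0, and 9 of the 10 genes still differed between sham regions. Of 336 recomputed differences of the 28 called sham pairs 312 kept their call, 17 lost it when a number was left out and 7 without the sham libraries that stand apart. With 5 libraries a group, the 95% intervals of the 10 genes, before any adjustment, give the sizes of change compatible with these libraries. They do not bound what the adjusted test could miss.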
